A study of Mus musculus with 30 samples.

Results

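Cytosolic ribosomal protein genes were examined in the livers of 14 germfree and 16 conventional C57BL/6J mice, on single-colour Illumina mouse arrays with 1 liver per array. Members were taken by symbol from the platform annotation: Rpl or Rps followed directly by a digit, or Rplp0, Rplp1, Rplp2 or Rpsa, without the Rps6k kinases and without pseudogenes. The annotation listed 70 such probes for 53 genes, and 48 genes had a probe with a detection p-value under 0.05 on at least 7 of the 30 arrays, of 9084 genes tested in all. A gene with several such probes was read from the brightest. Germfree mice carry no microbes, conventional mice carry a gut microbiota, and the mice of both groups had eaten a high-fat diet for 11 weeks and had gone 10 h without food. The labels name no genotype other than the inbred strain and give no age or sex.

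The cytosolic ribosome is built from a large subunit, which forms peptide bonds, and a small subunit, which reads the mRNA, each made of rRNA and a set of ribosomal proteins, named Rpl and Rps after the subunit. Their mRNAs are abundant in every cell that makes much protein, as hepatocytes do with the plasma proteins. Most start with a terminal oligopyrimidine (TOP) tract, through which the kinase complex mTORC1 adjusts their translation, so that mRNA level and protein output need not move together.

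Germfree livers had slightly higher signal for most of these genes, but the difference passed the test in 1 of them. Of 48 ribosomal protein genes, Rpl26 rose, none fell and 47 did not pass (limma, adjusted p under 0.05), against 6.49% of all genes tested that passed in either direction, 3.75% that rose and 2.74% that fell. Both counts moved with the processing: 0 to 4 members rose over the alternative settings, and 69 of all genes passed after median scaling, compared with 590 here. With 1 liver left out, 1 to 4 members rose, 4 of them without conventional liver 7 or 11 and 2 without conventional liver 3 or 10 or germfree liver 2, 3 or 4. At an unadjusted p under 0.05, 11 members were higher and 1 lower, with 10.0% of all genes higher and 8.74% lower at that p. The log2 change (germfree minus conventional) was above 0 in 42 of the 48 genes, or 87.5%, while it was above 0 in 49.9% of all genes. The 48 genes were read in the same livers and tended to vary together within groups, so these 42 are not separate observations. The median log2 change was 0.11 (quartiles 0.03 and 0.15), a 1.08-fold difference, beside a median of -0.00050 over all genes. The smallest and largest of the 48 changes were -0.16 and 0.42. In 47 of the 48 genes the 95% interval of the change lay inside a 1.5-fold difference in either direction, the exception being Rpl22l1. In no member did the germfree and conventional livers separate without overlap, which happened for 0.0550% of all genes.

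**Figure D1:**
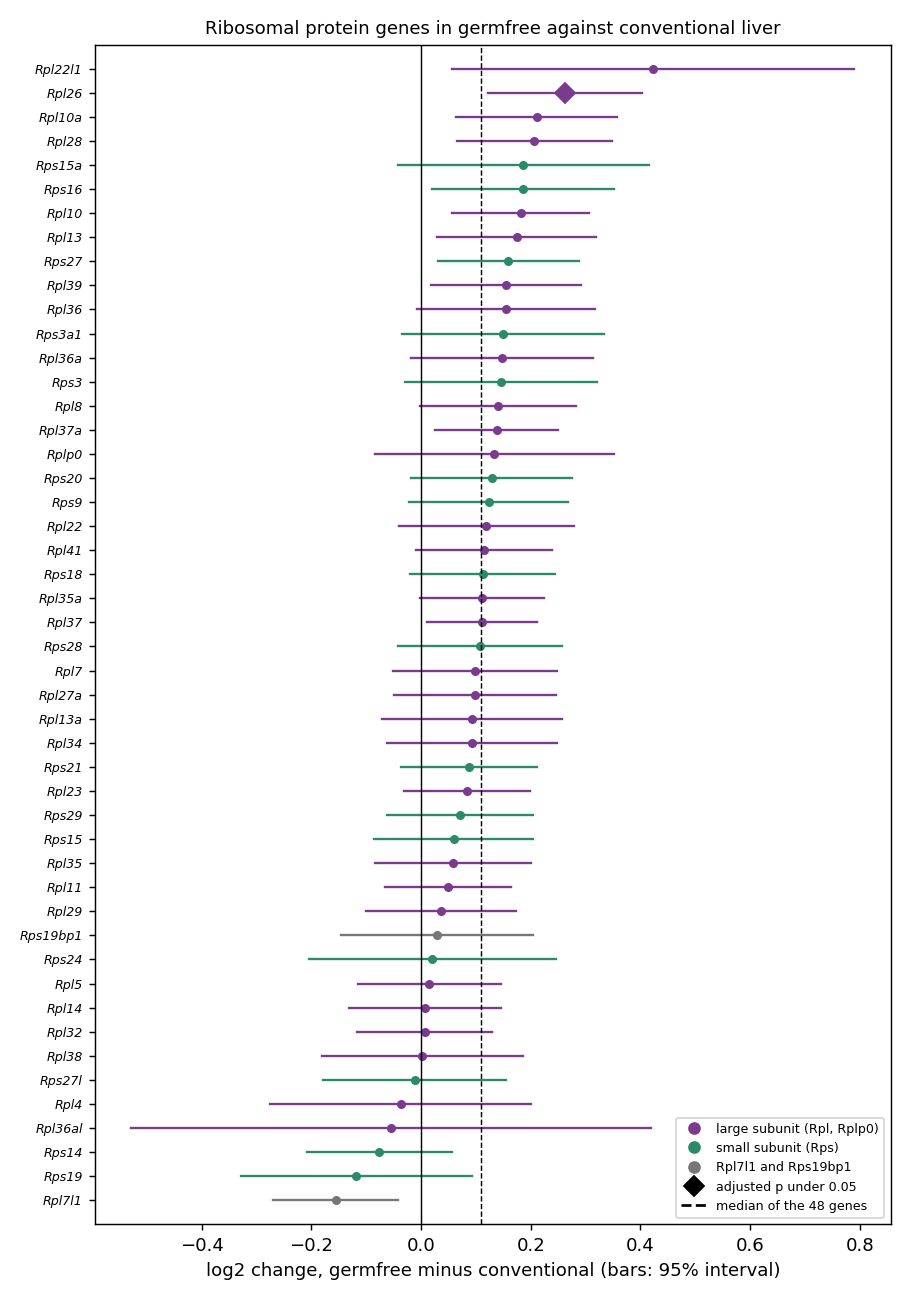
Log2 change in germfree against conventional liver (horizontal axis) with its 95% interval (bars) for each of the 48 ribosomal protein genes, 14 against 16 livers. Large-subunit genes are purple, small-subunit genes green, Rpl7l1 and Rps19bp1 grey. Rpl26, the diamond, is the gene past the threshold; 42 points lie right of 0, and the dashed line marks the median of 0.11.

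**Figure D2:**
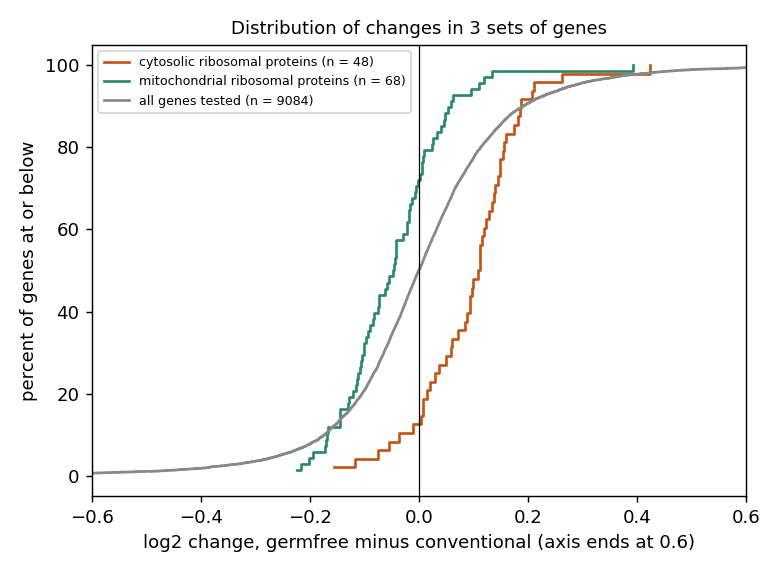
Cumulative distribution of the log2 change, germfree minus conventional, in the 48 cytosolic ribosomal protein genes, in 68 mitochondrial ribosomal protein genes and in all 9084 genes tested; the horizontal axis ends at 0.6 on either side. The cytosolic curve lies to the right of the curve of all genes over most of its range and crosses 0 with 6 of 48 genes below it, while the mitochondrial curve has 49 of 68 genes below 0.

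The promoters of 8 members are shown because 6 of them (Rpl26, Rpl28, Rpl10, Rpl10a, Rpl7l1 and Rps27) had the smallest p-values of the 48, and Rpl22l1 and Rpl36al had the widest spread between livers. Each line holds 80 bases before and 20 bases from the 5′-most annotated start (RefSeq, GRCm38.p6, 5′ to 3′ on the gene's strand). Capitals mark CGGAAG on either strand, the core letters bound by ETS factors such as GABP, and, within 50 bases of the start, a C followed by at least 5 C or T on the gene's strand.
Rpl26 (chr11:68901486-68901585, plus strand): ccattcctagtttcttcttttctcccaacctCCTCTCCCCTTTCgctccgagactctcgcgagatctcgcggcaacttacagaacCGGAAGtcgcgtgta
Rpl28 (chr7:4792885-4792984, plus strand): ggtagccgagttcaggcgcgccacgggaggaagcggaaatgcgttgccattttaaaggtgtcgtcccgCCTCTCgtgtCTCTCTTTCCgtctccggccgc
Rpl10 (chrX:74270736-74270835, plus strand): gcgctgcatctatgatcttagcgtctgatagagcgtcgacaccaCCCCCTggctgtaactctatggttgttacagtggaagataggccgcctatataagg
Rpl10a (chr17:28328391-28328490, plus strand): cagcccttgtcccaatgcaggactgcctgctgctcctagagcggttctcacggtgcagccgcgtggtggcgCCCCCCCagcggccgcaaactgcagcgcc
Rps27 (chr3:90213629-90213728, minus strand): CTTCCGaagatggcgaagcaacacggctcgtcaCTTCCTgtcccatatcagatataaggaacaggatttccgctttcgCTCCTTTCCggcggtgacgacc
Rpl7l1 (chr17:46782637-46782736, minus strand): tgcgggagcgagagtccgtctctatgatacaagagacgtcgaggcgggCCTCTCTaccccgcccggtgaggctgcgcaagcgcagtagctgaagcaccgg
Rpl22l1 (chr3:28805428-28805527, plus strand): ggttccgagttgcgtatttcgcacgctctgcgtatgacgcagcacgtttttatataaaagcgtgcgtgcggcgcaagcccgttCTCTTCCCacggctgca
Rpl36al (chr12:69184048-69184147, minus strand): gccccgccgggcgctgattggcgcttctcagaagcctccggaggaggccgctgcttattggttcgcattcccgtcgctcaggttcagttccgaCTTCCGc
Of the 48 members, 40 had a promoter in the table. CGGAAG, on either strand from 250 bases before to 50 bases from the start, was found in 26 of these 40 (65.0%), against 21.5% of 17492 protein-coding genes. The pyrimidine tract within 50 bases of the start was found in 35 of 40 (87.5%), against 58.3% of protein-coding genes, so that these letters are common in any promoter. Both were found in 23 of 40 (57.5%), against 11.8%. The motifs can overlap, since CTTCCG may lie in a tract of C and T, and annotated starts can lie some bases away from the start in use.

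Among large-subunit proteins, Rpl26, which lines the exit of the peptide tunnel, ran in germfree livers from 10.97 through a median of 11.27 to 11.64 (normalized log2 signal). In conventional livers it ran from 10.52 through 11.06 to 11.26. The values overlapped, yet 8 of 14 germfree livers lay above the highest conventional liver and 5 of 16 conventional livers lay below the lowest germfree liver. Rpl26 rose by 0.26 ± 0.07 on the log2 scale (SE, 14 against 16 livers), or 1.20-fold (limma, adjusted p = 0.0154). The call was lost after median scaling of the arrays (limma, adjusted p = 0.798, log2 change 0.28) and without the 3 arrays whose mean raw signal was under 160 (limma, adjusted p = 0.0561, log2 change 0.23). It was also lost among the 5 germfree and 5 conventional livers numbered 1 to 5 alone (limma, adjusted p = 0.638, log2 change 0.20).

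Rpl28, a large-subunit surface protein, had a lowest, median and highest signal of 11.74, 12.08 and 12.32 in germfree livers and of 11.53, 11.88 and 12.16 in conventional livers. Its log2 change of 0.21 ± 0.07 did not pass (SE, 14 against 16 livers; limma, adjusted p = 0.0685). Rpl10, which joins the large subunit late and sits beside the catalytic centre, ran from 12.36 through 12.70 to 12.86 in germfree livers and from 12.24 through 12.43 to 12.72 in conventional livers. Its log2 change was 0.18 ± 0.06 (limma, adjusted p = 0.0704). In both genes 4 germfree livers lay above every conventional liver and 4 conventional livers lay below every germfree liver. Rpl10a, part of the mobile stalk near the exit site for tRNA, ran from 10.19 through 10.37 to 10.77 in germfree livers and from 9.92 through 10.19 to 10.58 in conventional livers. Its log2 change was 0.21 ± 0.07 (limma, adjusted p = 0.0758), with 13 of 14 germfree livers above the conventional mean and 9 of 16 conventional livers below the lowest germfree liver. These 3 genes stood close to the threshold: with livers numbered 1 to 5 as a term in the fit, a set described further on and chosen after the data were seen, Rpl28 and Rpl10 passed with Rpl26 (limma, adjusted p = 0.0365 and 0.0397).

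**Figure D3:**
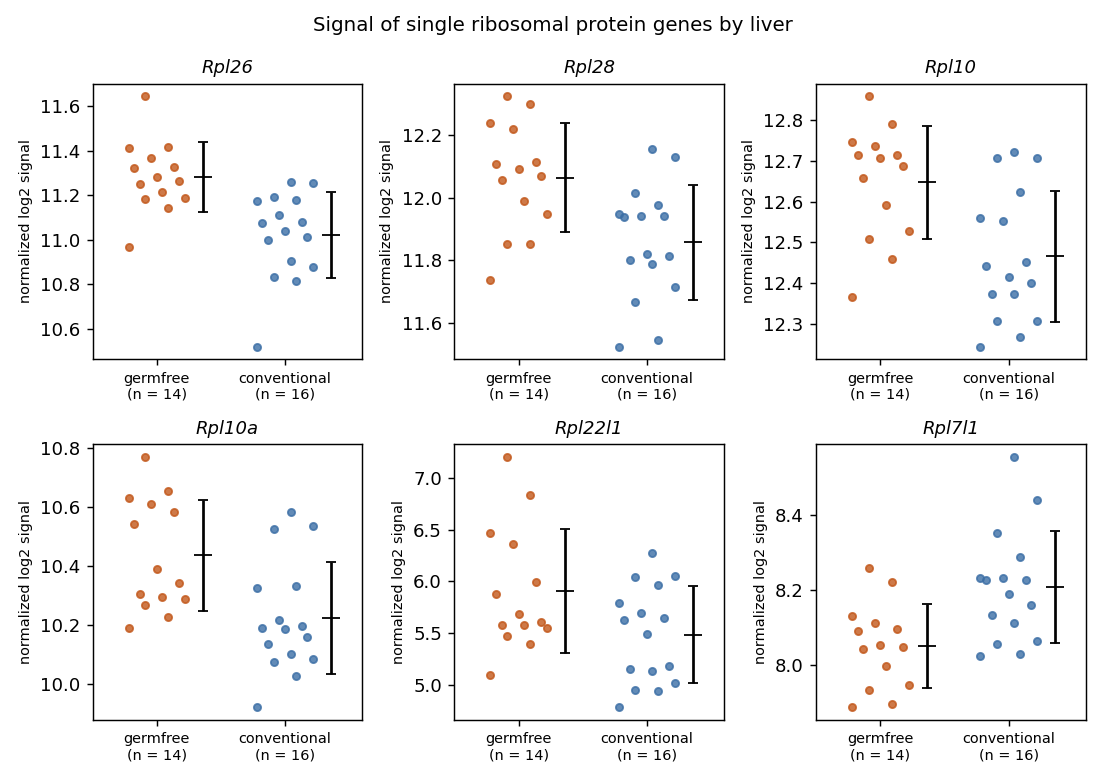
Normalized log2 signal (vertical axes, each with its own range) of 6 members in each liver, germfree left (n = 14) and conventional right (n = 16), with mean and SD at the side. Germfree livers lie higher for Rpl26, Rpl28, Rpl10, Rpl10a and Rpl22l1 and lower for Rpl7l1, and the 2 groups overlap in every panel.

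Over the 30 large-subunit genes, Rplp0 of the stalk base included, 1 rose, 29 did not pass and 28 had a log2 change above 0, with a median of 0.11. Neither Rpl13 (0.17 ± 0.07 on the log2 scale) nor Rpl37a (0.14 ± 0.06) passed (limma, adjusted p = 0.160 and 0.146). Rpl41, the smallest ribosomal protein, and Rpl23, both read from bright probes, had log2 changes of 0.12 ± 0.06 and 0.08 ± 0.06. Rpl5 and Rpl11, which under nucleolar stress bind Mdm2 in a form not built into ribosomes, were near 0, with log2 changes of 0.01 ± 0.06 and 0.05 ± 0.06. Rplp0, which anchors the stalk that recruits elongation factors and is often used as a reference gene, had a log2 change of 0.13 ± 0.11 and did not pass (limma, adjusted p = 0.567). Its probe was dim, with a mean log2 signal of 5.52, and was detected on 14 of 14 germfree and 15 of 16 conventional arrays. Rpl4, whose loop lines the peptide tunnel, and Rpl14 were detected on 8 and 4 of 14 germfree arrays and on 12 and 5 of 16 conventional arrays, so that part of their values lay at background. Their log2 changes were -0.04 ± 0.12 and 0.01 ± 0.07.

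Of 16 small-subunit genes, none passed and 13 had a log2 change above 0, with a median of 0.11. At an unadjusted p under 0.05, 2 of the 16 were higher, near the share of 10.0% of all genes tested. Rps27, a zinc-binding protein of the small subunit, ran from 12.15 through 12.37 to 12.63 in germfree livers, against 11.92 through 12.22 to 12.42 in conventional livers. Of the 14 germfree livers, 13 lay above the conventional mean of Rps27, yet its log2 change of 0.16 ± 0.06 did not pass (limma, adjusted p = 0.144). The bright probes of Rps18 and Rps29 had log2 changes of 0.11 ± 0.06 and 0.07 ± 0.07. Rps14 and Rps19, both needed to mature the small subunit, had changes of opposite sign to most members, -0.08 ± 0.07 and -0.12 ± 0.10, and did not pass (limma, adjusted p = 0.597 and 0.607). Rps19 was detected on 4 of 14 germfree and 7 of 16 conventional arrays, and Rps15a, with a log2 change of 0.19 ± 0.11, on 7 of 14 germfree and 5 of 16 conventional arrays.

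Rpl7l1 and Rps19bp1 match the rule by symbol without being core ribosomal proteins. Rpl7l1, a paralog of Rpl7 that acts in assembly of the large subunit, was the sole member lower in germfree liver at an unadjusted p under 0.05. It ran from 7.89 through 8.05 to 8.26 in germfree livers, against 8.02 through 8.21 to 8.55 in conventional livers. The difference, -0.16 ± 0.06 on the log2 scale with 12 of 14 germfree livers below the conventional mean, did not pass (limma, adjusted p = 0.0973). The second probe of Rpl7l1 gave -0.17 ± 0.11, with a weak correlation of 0.27 with the first over deviations within groups. Rps19bp1, which binds Rps19, had a log2 change of 0.03 ± 0.09. Without these 2 genes 41 of 46 members had a log2 change above 0.

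Among paralogs that can take the place of a core protein, Rpl36al and Rpl22l1 had the widest spread of all 48 members within groups. Rpl22l1, the paralog of Rpl22, had the largest log2 change of any member, 0.42 ± 0.18 (SE, 14 against 16 livers), and did not pass (limma, adjusted p = 0.180). Its signal ran from 5.09 through 5.65 to 7.20 in germfree livers and from 4.78 through 5.56 to 6.27 in conventional livers, with 4 germfree livers above all conventional ones. The Rpl22l1 probe was dim, with a mean log2 signal of 5.68. It was detected on 14 of 14 germfree and 14 of 16 conventional arrays, so some of its low values lay at background. Rpl22 itself had a log2 change of 0.12 ± 0.08. Rpl36al, an expressed copy of Rpl36a, had the largest spread within groups of any member, an SD of 0.75 in germfree and 0.64 in conventional livers, and a log2 change of -0.05 ± 0.23. The Rpl36al probe was detected on 10 of 14 germfree and 13 of 16 conventional arrays, so that part of its values lay at background. Rpl36a had a log2 change of 0.15 ± 0.08 (limma, adjusted p = 0.339). Rps27l, a paralog of Rps27 that p53 induces, had a log2 change of -0.01 ± 0.08. Its direction was positive after median scaling and cyclic loess.

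The spread of Rpl36al and Rpl22l1 followed the numbering of the livers in the labels. Rpl36al lay between 5.73 and 6.71 in the 10 livers numbered 1 to 5 of either group, and between 4.68 and 5.80 in the other 20. It was detected in 5 of 5 livers of each group numbered 1 to 5. Among the others it was detected in 5 of 9 germfree and 8 of 11 conventional livers, so part of these low values lay at background. Among livers numbered 1 to 5, Rpl22l1 ran from 5.99 to 7.20 in 5 germfree livers and from 5.49 to 6.27 in 5 conventional livers. Among the others it ran from 5.09 to 5.87 in 9 germfree livers and from 4.78 to 6.05 in 11 conventional livers, where it was detected in 9 of 11. The germfree minus conventional log2 change of Rpl22l1 was 0.65 within the first set and 0.24 within the second (limma, adjusted p = 0.278 and 0.397), and the difference between these was not tested. Livers numbered 1 to 5 also stood apart over all genes. On the first axis of variation within groups, which held 15.1% of the variance, all 10 lay below 0, against 2 of the other 20. Those 2 were conventional liver 6 (-10.9), the dimmest array, and conventional liver 16 (-6.28). The second axis held nearly as much of the variance, 14.0%. In a fit with this numbering as a term, 4 of 48 members differed between the 2 sets, beside 714 of 9084 genes (limma, adjusted p under 0.05). The 4 were Rpl36al (log2 difference 1.24 ± 0.13, numbered 1 to 5 minus the rest), Rpl22l1 (0.81 ± 0.13), Rps3 (-0.28 ± 0.08) and Rpl13 (-0.22 ± 0.07). This split was chosen after the data were seen, so the counts only describe it. The sources used here do not say what the numbers stand for. The median log2 change of the members, germfree minus conventional, was 0.07 within livers numbered 1 to 5 and 0.11 within the others, and 36 and 41 of 48 genes lay above 0.

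**Figure D4:**
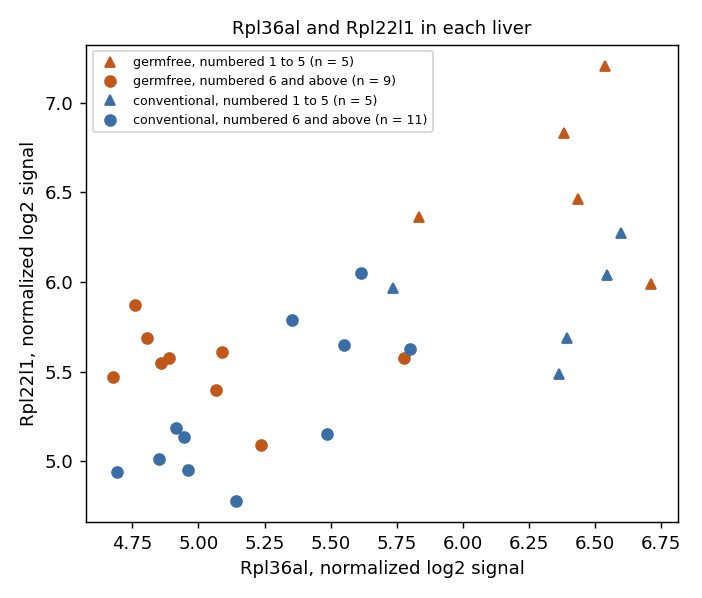
Normalized log2 signal of Rpl36al (horizontal axis) and Rpl22l1 (vertical axis) in each of 30 livers, germfree orange and conventional blue, with triangles for livers numbered 1 to 5 and circles for the rest. The triangles sit at the right, with Rpl36al from 5.73 to 6.71, and the highest Rpl22l1 values, up to 7.20, are germfree triangles.

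Per liver, the mean over the 40 members detected on all arrays was 11.10 ± 0.08 in germfree livers and 11.00 ± 0.10 in conventional livers (log2 signal, SD, n = 14 and 16). It ran from 11.00 to 11.28 in germfree and from 10.86 to 11.26 in conventional livers. Every one of the 14 germfree values exceeded the mean of the conventional livers, the lowest of them only just (11.0035 against 11.0011). With the mean taken over all 48 members, 13 of 14 germfree livers did so. Over the 40 members, 3 of 16 conventional values exceeded the germfree mean, so the groups overlapped. The difference of 0.10 compares with a pooled SD within groups of 0.09. No p is given, since the genes were chosen with earlier results of these data known. In these 40 genes 1 rose, 37 had a log2 change above 0 and the median was 0.11; in the 8 members not detected on every array 5 were above 0 and the median was 0.01. The array of conventional liver 6 was the dimmest, with a mean raw signal of 85.5 intensity units, and it also had the lowest mean of all 48 members, 9.87. Without it the median log2 change of the members was 0.10 and 38 of 48 genes lay above 0.

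**Figure D5:**
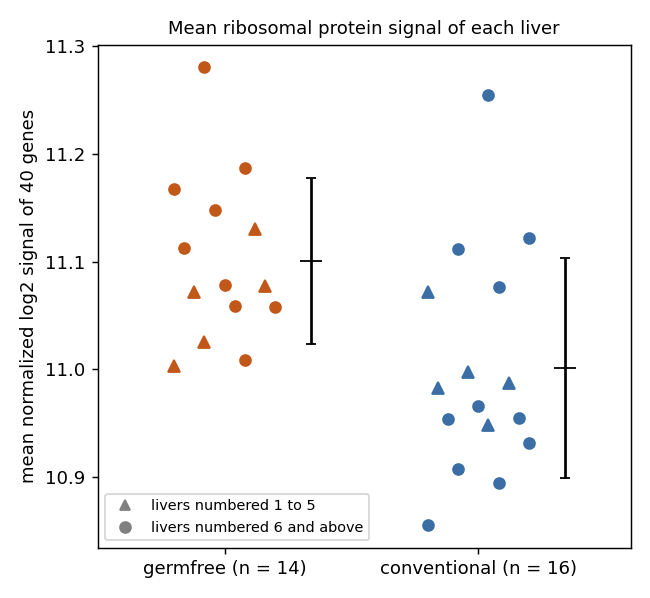
Mean normalized log2 signal of the 40 ribosomal protein genes detected on all arrays (vertical axis) in each germfree (left, n = 14) and conventional (right, n = 16) liver, with mean and SD at the side; triangles are livers numbered 1 to 5. Germfree livers run from 11.00 to 11.28 and conventional livers from 10.86 to 11.26. All germfree livers lie above the conventional mean, the lowest of them only just (11.0035 against 11.0011).

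Members varied together within groups. Over the deviations of 30 livers from their group means, the 780 pairs of the 40 members detected on all arrays had a median correlation of 0.26 (quartiles 0.04 and 0.45), and 78.2% of pairs were above 0. With the numbering of the livers taken out as well the median was 0.30. Pairs of a large-subunit and a small-subunit gene had a median of 0.26. Against the mean of the other members detected on all arrays, the correlation was above 0.5 in 24 of 48 members, highest in Rpl10a (0.75), Rps15 (0.74) and Rpl35 (0.73). Among 9036 other genes 3.86% had a correlation above 0.5 with that mean. Rpl22 (-0.25), Rpl36al (-0.22), Rpl4 (-0.22) and Rps19 (-0.21) had weak negative correlations, where the other genes had a lower quartile of -0.17. Of these members, Rpl36al, Rpl4 and Rps19 were not detected on all arrays. All these values share arrays, normalization and, for bright probes, a range of signal, and are given as a description.

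For 6 members more than 1 probe passed the detection filter, and all 9 further probes had the sign of the probe used. The 5 probes of Rps9 had log2 changes from 0.08 to 0.21, and 1 of them ran apart from the probe used, with a correlation of -0.23 over deviations within groups, against 0.68 to 0.80 for the other 3. The 2 probes of Rpl13a both gave 0.09, and those of Rps3 gave 0.15 and 0.10. Outside Rps9, the further probe had a correlation with the probe used of 0.65 in Rpl13a. That correlation was weaker in Rps3 and Rpl27a (0.37 each) and in Rpl23 and Rpl7l1 (0.27 each). Ribosomal protein genes have many processed pseudogenes and some close paralogs, and signal from such copies could not be told apart from that of the gene.

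Other genes of the translation machinery were read from lists of known members. Of 68 mitochondrial ribosomal protein genes, which build the separate ribosome of mitochondria, 1 rose, none fell and 67 did not pass; 19 had a log2 change above 0 and the median was -0.05. The gene that rose was Mrpl38 (0.39 ± 0.11; limma, adjusted p = 0.0263). Of 10 elongation and termination factors none passed; 6 had a log2 change above 0 and the median was 0.11. The 4 below 0 were Etf1 (-0.11), Gspt1 (-0.08), Eef1e1 (-0.07) and Eef1g (-0.03). Eef1a1, which delivers aminoacyl-tRNA, ran from 13.21 through 13.65 to 13.90 in germfree livers and from 13.06 through 13.48 to 13.65 in conventional livers. Its log2 change of 0.17 ± 0.07 did not pass (limma, adjusted p = 0.124), nor did that of Eef2, which translocates the ribosome (0.19 ± 0.09; limma, adjusted p = 0.224), or of Gspt2, a release factor (0.19; limma, adjusted p = 0.157). Fau, whose product is cut to give a small-subunit protein, had a log2 change of 0.10 ± 0.07 and did not pass.

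Of 33 initiation factors, Eif5, which triggers GTP hydrolysis at the start codon, rose by 0.27 ± 0.08 (limma, adjusted p = 0.0414) and 32 did not pass, with a median of -0.0047. Of 60 nucleolar biogenesis factors none passed and the median was -0.0072; Nop56, a core protein of the particles that methylate rRNA, had 0.29 ± 0.09 and Pelp1 had -0.16 (limma, adjusted p = 0.0504 and 0.206). Of 17 other genes with TOP mRNAs, among them Eef1a1, Eef2 and Fau, none passed, with a median of 0.02. The lowest p in that list was that of Hnrnpa1 (0.32 ± 0.11; limma, adjusted p = 0.0686), and Pabpc1 had -0.01 ± 0.12. Of 17 genes of the mTORC1 pathway and translational control, Eif4ebp1, the repressor of initiation that mTORC1 inactivates, fell and 16 did not pass, with a median of 0.02. Eif4ebp1 ran from 10.07 through 10.29 to 10.64 in germfree livers and from 10.31 through 10.55 to 10.78 in conventional livers, a log2 change of -0.23 ± 0.07 (limma, adjusted p = 0.0269). Of 15 genes for cytosolic aminoacyl-tRNA synthetases and proteins of their complex none passed and the median was -0.05. Tars had -0.32 ± 0.10 and Farsb had -0.21 (limma, adjusted p = 0.0544 and 0.0938). Aimp2 and Eef1e1 in this list are not synthetases, and Eef1e1 is also counted with the elongation factors. Of 6 genes of the p53 response, Trp53inp1 rose (1.09 ± 0.13; limma, adjusted p = 1.20e-06) and 5 did not pass. The median of the 6 was -0.09, with 4 below 0, among them Cdkn1a, the p53-induced inhibitor of cyclin-dependent kinases, at -0.57 ± 0.24 (limma, adjusted p = 0.181).

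Brightness, array quality and cell makeup were set beside these values. In the 34 members with a mean log2 signal of at least 9 the median log2 change was 0.11, and in the 1341 other genes in that range it was -0.01. These sets were not matched for brightness within the range, and the part of brightness in the members' change was not tested. Mean raw signal was 247 ± 73.6 intensity units in germfree and 245 ± 67.4 in conventional livers (SD, n = 14 and 16). With the log2 of that signal as a covariate the members' median was 0.11. Hepatocyte markers were bright in both groups, with a mean over 6 tested genes of 13.87 to 14.10 in germfree and 13.79 to 14.07 in conventional livers (log2 signal). All 6 had a log2 change above 0 and 2 rose. Their median of 0.13 was about as large as that of the ribosomal protein genes, 0.11. Of 8 Kupffer cell and macrophage markers 3 fell, and all 8 had a log2 change below 0, with a median of -0.40. The mean over the list was 6.04 to 6.85 in germfree and 6.35 to 7.34 in conventional livers. In T and NK cells Cd3e, Cd3g, Nkg7 and Gzma were detected on no array. Of the 4 markers tested there, Cd247 passed as lower; it was detected on 2 of 14 germfree and 12 of 16 conventional arrays, so it met the detection filter through the conventional livers and lay mostly at background in germfree livers. The other 3 did not pass, and none of 2 B and plasma cell markers passed. Among erythroid markers 1 of 3 fell, and among bile duct markers 1 of 2 fell while the other had a log2 change above 0. Among 6 endothelial, 3 stellate and 3 acinar markers 1 rose in each list. Yet 4 of the 6 endothelial (median -0.11), 1 of the 3 stellate and 1 of the 3 acinar markers had log2 changes below 0. None of 4 neutrophil markers passed. Kdr (endothelial), Col1a2 and Col3a1 (stellate), Prss1 and Try4 (acinar), Krt19, Epcam and Cftr (bile duct) and Mpo and Ngp (neutrophils) were detected on no array. The part of these cells in the ribosomal protein values was not tested. In whole liver, fewer cells of a type and less RNA per cell cannot be told apart.

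The detection filter left out 5 genes. Rpl17, Rpsa and Rpl39l were detected on no array, Rpl3l on 2 and Rpl21 on at most 4 arrays by its better probe. Just inside the limit of 7 arrays, the probe used for Rpl14 was detected on 9. A dim probe can fail to bind an abundant mRNA, so these counts describe the probes. Rplp1, Rplp2, Rps6, Rps27a and Rpl3 were not analysed here.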

How the data were processed

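Total RNA from liver was labelled with biotin and hybridised to single-colour Illumina arrays. The deposited signal table holds non-normalized probe intensity and a detection p-value for each array, per the file headers, and the submitters' processing notes name GenomeStudio. A second deposited table holds the authors' normalized intensity, used as an alternative; how it was normalized is not given in the sources used here. The signal table also has 33 arrays that the labels do not place, and these were not used.

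Signals were background-corrected with normexp (offset 16), quantile-normalized and log2-transformed with neqc (limma 3.58.1, R 4.3.3). Probes with a detection p-value under 0.05 on at least 7 arrays were kept, 10525 of 24613, and each gene was read from its probe with the highest mean. Germfree was compared with conventional in two-sided tests by lmFit and eBayes; p-values were adjusted over 9084 genes by the Benjamini-Hochberg method, with 0.05 as threshold. Intervals are 95%. The procedure was tested on simulated data. The members and the gene lists were chosen with earlier results of these data known. Genes named are those past the threshold, the 8 members with the smallest p, the 4 with the highest and 3 with the lowest mean, the 3 with the largest SD, and a set list; for pathway lists, those past the threshold or else the 2 with the smallest p, plus Fau, Eef1a1, Eef2 and Pabpc1. Cdkn1a, Etf1, Gspt1, Eef1e1, Eef1g, Rps3 and Rps9 and other genes outside this rule were named after their values were seen. Members were chosen by the symbols of the platform annotation, and all symbols were then updated to RefSeq by gene identifier or accession where possible. A kept probe without a single symbol counted as its own gene among the 9084. Promoters came from RefSeq (GRCm38.p6). Each array is labelled as 1 liver; array number limits the precision.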

Additional observations from a re-analysis of the deposited data

How the results depend on the processing

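Between 1 and 4 members rose when single livers were left out: 4 without conventional 7 or conventional 11, and 2 without conventional 3, conventional 10, germfree 2, germfree 3 or germfree 4. The count was 3 without background correction, 3 with the authors' normalized values, 4 with array weights, 2 with log2 mean signal as a covariate and 3 with the numbering of the livers as a term. It was 0 after median scaling, 0 without the 3 arrays of mean signal under 160, 0 at an adjusted p of 0.01 and 0 within livers numbered 1 to 5; the cause was not tested, beyond the 10 livers in the last. Rpl26 passed in all 30 fits that left out 1 liver, with log2 changes of 0.23 to 0.29. No member fell under any of these settings. The median log2 change of the members stayed between 0.07 and 0.11, and between 0.09 and 0.12 with 1 liver left out, when 38 to 44 of 48 members were above 0.

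Of all genes, 590 passed, against 69 after median scaling, 264 at an adjusted p of 0.01, 11 within livers numbered 1 to 5, and 519 to 610 with 1 liver left out. After median scaling 42 of the 69 were higher and 27 lower. With the replicate number as a block, 499 genes and 1 member passed, against 474 and 1 in the same 28 arrays without the block. Same-numbered livers correlated above 0.1 in 7 of 14 pairs (-0.18 to 0.37), so the numbers were not taken as pairs.

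Members near 0 changed sign without passing. Rpl14, Rpl4 and Rps27l were -0.0105, 0.0170 and 0.0274 after median scaling, -0.0253, 0.00217 and 0.0125 after median scaling over probes detected on all arrays, and -0.00988, 0.0125 and 0.0158 after cyclic loess. Without the dimmest arrays Rpl14, Rpl4, Rpl5, Rps27l and Rps19bp1 were -0.0221, 0.0477, -0.0233, 0.00284 and -0.0103. Within livers numbered 1 to 5, Rps29, Rpl36al, Rpl4, Rpl5, Rpl11, Rps27l and Rps19bp1 were -0.00455, 0.050, 0.129, -0.121, -0.0336, 0.247 and -0.0866. With 1 liver left out the ranges were -0.0276 to 0.0282 (Rpl14), -0.148 to 0.0147 (Rpl36al), -0.0804 to 0.0233 (Rpl4), -0.0103 to 0.0385 (Rpl5), -0.00105 to 0.0550 (Rps19bp1) and -0.0458 to 0.0142 (Rps27l). The splits by liver number were chosen after seeing the data. Signals near background limit 8 members.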
